A study of Mus musculus with 9 samples.

Results

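Islets of Langerhans from mice heterozygous for the db allele of the leptin receptor gene (db/+) were compared with islets from wild-type mice (WT), with 3 RNA-seq libraries in each genotype. These 6 libraries are part of a series of 9, in which the other 3 came from homozygous db/db mice. All mice were 12 weeks old, and all 9 libraries, WT included, carry the same strain label, that of the BKS background with the db mutation of Lepr. The labels do not give sex, nor whether a library came from 1 animal or from pooled islets, so p-values measure the spread between these libraries, which may in part be technical. The comparison covers all 16826 genes that passed a filter on low counts, of 52459 symbols in the count table.

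The leptin receptor carries the signal of the fat cell hormone leptin, and the db mutation disturbs the splicing of its long, signalling isoform. Homozygous mutants become obese and diabetic, whereas heterozygous carriers are often used as lean controls. Beta cells fold and secrete very large amounts of insulin, and they rely on the unfolded protein response, the set of pathways that raises chaperones and degradation factors when misfolded protein accumulates in the endoplasmic reticulum. One of its branches, shared with the integrated stress response to amino acid shortage, acts through the transcription factors ATF4 and CHOP.

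The 6 libraries held 9558955 to 11734886 counts, and the floor of 3 counts that a count of 0 allows equals 0.238 to 0.305 CPM, where CPM scales counts to a common library size. Pearson correlations of log2 CPM were 0.982 to 0.985 within WT, 0.985 to 0.987 within db/+ and 0.974 to 0.984 between the genotypes. Xist, which is transcribed from the inactive X, stood at 565 and 596 CPM in WT 1 and WT 3 but at 0.722 CPM in WT 2 and at 0.162 to 0.506 CPM in db/+. The summed level of 4 Y-linked genes was 219, 343 and 235 CPM in WT and 373 to 417 CPM in db/+, so WT 1 and WT 3 held both kinds of RNA, and WT 2 and the db/+ libraries held Y-linked RNA with almost no Xist. Gm42418 and Lars2, symbols that are known to collect reads of ribosomal RNA, together took 1.89% to 2.58% of the counts in WT and 0.0220% to 0.0237% in db/+. The 36 genes of exocrine acinar cells summed to 15564, 8651 and 8398 CPM in WT and to 18851, 23672 and 42748 CPM in db/+, without overlap. WT 3 is also the only 1 of the 6 libraries whose title begins with H rather than G. These values differ along with genotype or stand apart within WT, and their part in the results was not tested unless a value is given beside a result.

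**Figure D1:**
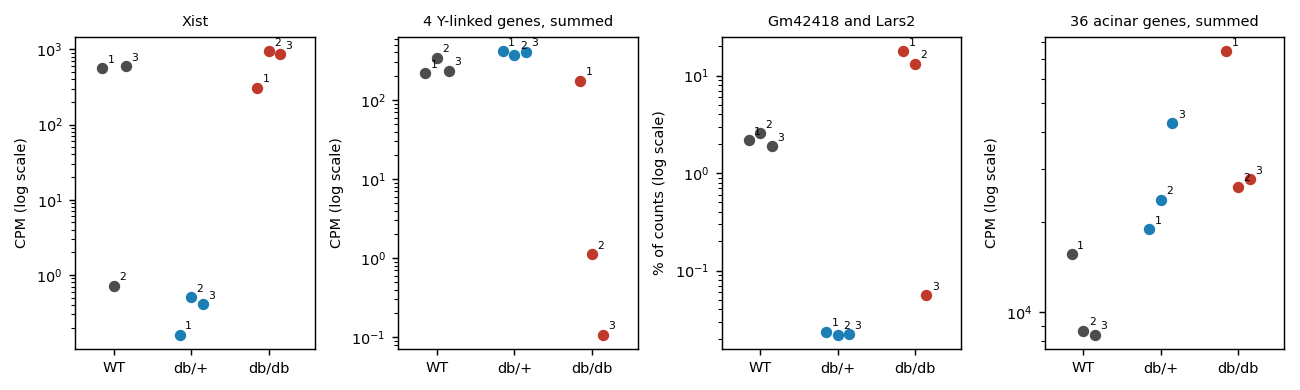
Xist, the sum of 4 Y-linked genes, the share of counts at Gm42418 and Lars2, and the sum of 36 acinar genes in each of the 9 libraries, on log scales; each point is 1 library with its replicate number. WT 1 and WT 3 sit at 565 and 596 CPM of Xist while WT 2 and the db/+ libraries sit below 1 CPM, and the Gm42418 and Lars2 share is at least 1.89% in WT and at most 0.0237% in db/+.

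No difference was detected in the level of Lepr itself. Lepr (chromosome 4, 101717137 to 101815352, mm10) was at 3.17, 1.72 and 1.93 CPM in WT and at 4.37, 1.52 and 1.63 CPM in db/+. Its log2 fold change of 0.13 ± 0.65 (SE, adjusted p = 0.957) has an error so wide that only a very large difference could have been detected, and because the mutation acts on splicing a whole-gene count does not check the genotype labels. Among 108 tested genes within 10 Mb of Lepr, 1 was higher and none was lower in db/+, against a background of 1.43% over all tested genes. The 1 gene was Jun, described below with the other AP-1 genes. The 16 tested genes of a list from the region of Lepr had a median log2 fold change of 0.04.

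A small set of genes differed between the genotypes, and the differences were modest in size. With edgeR's quasi-likelihood test on all 9 libraries and a Benjamini-Hochberg adjusted p under 0.05, 240 of 16826 genes differed (1.43%), 102 of them higher in db/+ (0.606%) and 138 lower (0.820%). The 102 higher genes had log2 fold changes of 0.30 to 1.63 with a median of 0.61, and the 138 lower genes -0.30 to -1.69 with a median of -0.53. A change of at least 2-fold was reached by 9 of the higher and 4 of the lower genes. All 240 separated the 3 db/+ from the 3 WT libraries without overlap, as did 3788 (22.5%) of all tested genes. Over all tested genes the median log2 fold change was 0.02, and 2620 had an unadjusted p under 0.05. For scale, db/db against WT, which shares the WT libraries, gave 7018 calls (41.7%).

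The calls depended on single libraries. Leaving out 1 of the 6 libraries at a time gave 23 to 183 calls, with 44 without WT 3, 23 without db/+ 1, 27 without db/+ 2 and 58 without db/+ 3. With WT 2 as the only WT library, the WT library that is like db/+ in Xist and Y-linked RNA, 21 genes were called. All 240 genes kept their sign in each of the 6 fits with a library left out and in the fit with WT 2 alone. Because no called gene overlapped between the genotypes, a kept sign was all but fixed in advance and is not a check. Of the 240, 17 were called in all 6 fits, every 1 of them higher in db/+. With the summed level of genes that overlap ribosomal RNA sequence, Gm42418 and Lars2 among them, as a covariate no gene was called, and 1269 had an unadjusted p under 0.05. The share of Gm42418 and Lars2 does not overlap between the genotypes, so the 2 cannot be told apart.

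The genes with the highest fold changes are named here among called genes that reached 10 CPM in the higher genotype and did not overlap between genotypes, without predicted genes, small RNAs or pseudogenes. Within that limit Ddit3, which encodes CHOP, was first with a 2.75-fold difference, and H2-K2, Rbm15b, Nfkbia, Derl3, Jund, Tcf24, Klf6, Mafk, Nfkb2 and Trib3 were also among the 12 highest, at log2 fold changes down to 0.81. Rbm15b, an RNA-binding subunit of the m6A methyltransferase complex encoded by a gene with 1 exon, was at 228, 248 and 337 CPM in WT and at 711, 605 and 533 CPM in db/+ (log2 fold change 1.18 ± 0.17, adjusted p = 0.0227). It was at 206 to 287 CPM in db/db, inside or close to the WT range, and its call was lost without db/+ 1 or db/+ 2. Tcf24, a basic helix-loop-helix gene, was tight in both genotypes, at 10.6 to 11.6 CPM in WT and 20.4 to 21.2 CPM in db/+ (0.91 ± 0.11, adjusted p = 0.00285).

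**Figure D2:**
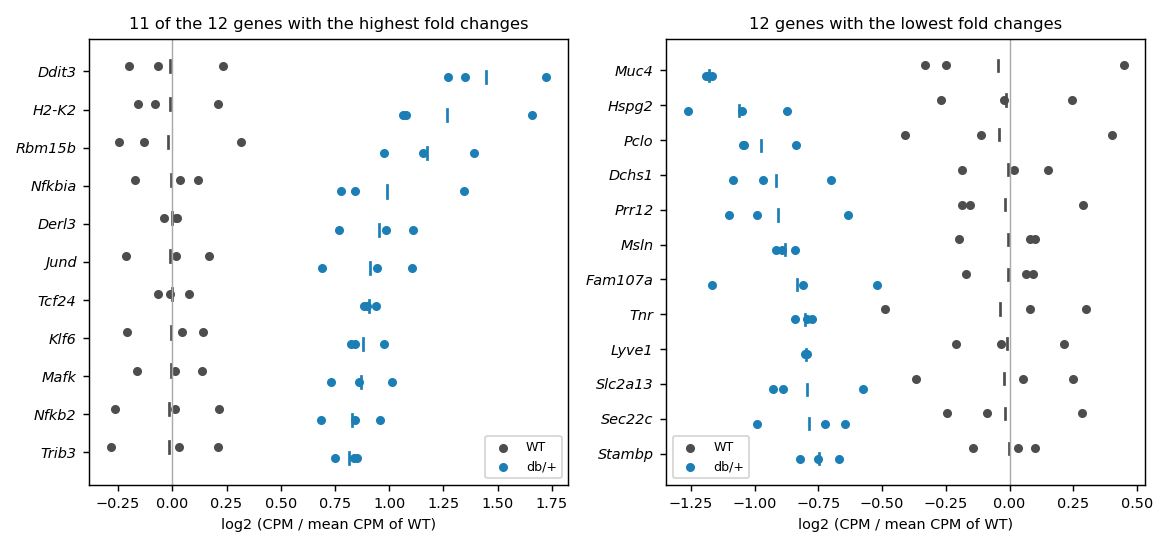
Log2 of CPM over the mean WT CPM for 11 of the 12 highest and the 12 lowest fold changes among called genes, with 1 point per library and a bar at the mean of each genotype (grey WT, blue db/+). The rule for the ranking requires that no db/+ point overlaps the WT points of the same gene. The WT points of Muc4, Pclo and Tnr spread more widely than their db/+ points.

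The unfolded protein response list held the most calls of the 39 lists examined. All 33 members were tested, and 11 were higher in db/+ and none lower, against a background of 0.606% of tested genes called higher. The 11 were Ddit3, Trib3, Chac1, Ppp1r15a and Asns of the ATF4 and CHOP branch, Herpud1, Derl3 and Sel1l of endoplasmic reticulum associated degradation, and Creld2, Calr and Manf, a folding factor, a chaperone and a secreted stress protein. Over the 33 the median was 0.26 on the log2 scale and 29 were positive, where 53.0% of all tested genes were. The list was chosen with earlier results of these data known, so its count is a description. Acinar cells are also rich in such genes, and the acinar sum differed between the genotypes. With the mean level of the acinar genes as a covariate 11 members were called higher. These are not the same 11: Trib3 (adjusted p = 0.0857), Chac1 (0.140) and Sel1l (0.265) lost their call there, and 3 other members gained one. That mean log2 CPM was 5.85 to 6.65 in WT and 6.85 to 7.90 in db/+, without overlap. Acinar level and genotype therefore cannot be told apart, and the fit with this covariate does not separate them.

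The promoters of 5 risen members are shown because they carry the short elements through which this response is known to act, the endoplasmic reticulum stress elements bound by ATF6 and XBP1 and the C/EBP-ATF element bound by ATF4. Each is the 250 bases before the annotated start (RefSeq, GRCm38.p6), read along the gene's strand, with the matches in capitals: Derl3 (chr10:75893148-75893397, plus strand), Creld2 (chr15:88819396-88819645, plus), Calr (chr8:84846932-84847181, minus), Herpud1 (chr8:94386179-94386428, plus) and Chac1 (chr2:119350992-119351241, plus).
Derl3: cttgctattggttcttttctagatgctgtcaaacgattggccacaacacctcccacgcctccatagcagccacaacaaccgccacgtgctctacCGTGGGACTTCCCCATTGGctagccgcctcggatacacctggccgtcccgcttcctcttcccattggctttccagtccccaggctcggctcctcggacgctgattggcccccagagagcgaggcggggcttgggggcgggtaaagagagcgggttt
Creld2: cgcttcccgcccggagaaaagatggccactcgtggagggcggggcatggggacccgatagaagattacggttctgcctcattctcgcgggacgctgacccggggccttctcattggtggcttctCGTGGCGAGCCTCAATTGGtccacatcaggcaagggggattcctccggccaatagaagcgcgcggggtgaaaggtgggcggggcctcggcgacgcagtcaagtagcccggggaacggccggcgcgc
Calr: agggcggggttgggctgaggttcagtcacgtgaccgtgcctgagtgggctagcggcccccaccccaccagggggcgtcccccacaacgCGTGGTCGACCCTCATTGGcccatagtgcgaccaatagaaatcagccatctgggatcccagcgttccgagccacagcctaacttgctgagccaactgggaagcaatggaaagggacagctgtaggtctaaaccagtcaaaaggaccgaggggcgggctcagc
Herpud1: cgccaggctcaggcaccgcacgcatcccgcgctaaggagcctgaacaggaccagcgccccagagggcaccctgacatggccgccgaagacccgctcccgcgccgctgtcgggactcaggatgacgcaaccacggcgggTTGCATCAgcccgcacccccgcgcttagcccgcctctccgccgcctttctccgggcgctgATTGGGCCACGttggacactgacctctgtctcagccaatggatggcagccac
Chac1: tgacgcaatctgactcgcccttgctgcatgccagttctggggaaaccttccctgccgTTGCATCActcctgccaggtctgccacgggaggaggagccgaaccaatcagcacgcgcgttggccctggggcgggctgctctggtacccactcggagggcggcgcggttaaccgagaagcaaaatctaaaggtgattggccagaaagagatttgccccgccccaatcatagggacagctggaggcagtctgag

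In Derl3, Creld2 and Calr the capitals mark, on the reverse strand, CCAAT followed after any 9 bases by CCACG, the endoplasmic reticulum stress element, beginning 156, 126 and 162 bases before the start. In Herpud1 they mark TGATGCAA on the reverse strand, from 112 bases before the start, and a second form of the stress element, ATTGG followed after any 1 base by CCACG, from 52 bases before it. In Chac1 they mark TGATGCAA on the reverse strand, from 193 bases before the start. Searched on both strands of 32851 promoters, the stress element was present in 39 (0.119%), its second form in 12 (0.0365%) and TGATGCAA in 294 (0.895%). The window searched also took in bases just after each start, which are not shown above. These shares are of promoters, whereas the counts of genes below take a match in any promoter of a gene. A promoter was found for 29 of the 33 list members, 71 of the 102 higher genes and 105 of the 138 lower genes. The first element was in 9 of the 29, and only 3 of those 9, the genes shown here, were called higher. Hspa5, Hsp90b1, Canx, Dnajc3, Pdia6 and Syvn1 hold it and did not pass the test. The second form was in 2 of the 29, Herpud1 and Dnajb11, of which Dnajb11 did not pass, and in 1 of the 71 higher genes. TGATGCAA was in 2 of the 29 and 2 of the 71, in both cases Chac1 and Herpud1. It was not found for Ddit3 or Ppp1r15a, whose promoters were searched. None of the 3 elements was found in the promoters of the 105 lower genes. A match describes letters in the window and is not evidence of binding.

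Of the ATF4 and CHOP branch, Ddit3 (chromosome 10, 127290793 to 127296291) was at 106, 78.7 and 86.4 CPM in WT and at 299, 230 and 218 CPM in db/+. Every db/+ library was above 2 times the highest WT library, and the log2 fold change was 1.46 ± 0.21 (adjusted p = 0.0362). In db/db Ddit3 was at 72.7, 120 and 118 CPM and its log2 fold change against the same WT libraries was 0.19 (adjusted p = 0.504). Its call was lost on leaving out any of the 6 libraries other than WT 1, with an adjusted p of up to 0.136. Ppp1r15a, whose product GADD34 returns eIF2 alpha to its active, dephosphorylated state, was at 171, 165 and 166 CPM in WT and at 272, 270 and 261 CPM in db/+. The libraries of each genotype lay within a few percent of each other, and its log2 fold change of 0.68 ± 0.08 (adjusted p = 0.00285) held in all 6 fits with a library left out. Trib3, a pseudokinase target of CHOP, was at 8.57, 7.59 and 6.10 CPM in WT and at 13.3, 12.5 and 13.4 CPM in db/+ (0.81 ± 0.17, adjusted p = 0.0414). Its call held in only 1 of the 6 fits with a library left out. Chac1, which degrades glutathione, rose by 0.74 ± 0.15 (adjusted p = 0.0444) and Asns, the asparagine synthetase gene, by 0.49 ± 0.10 (adjusted p = 0.0363), each called in only 1 of the 6 fits with a library left out. Atf4 itself was at 390, 440 and 395 CPM in WT and at 555, 541 and 515 CPM in db/+, and it fell just short of the threshold (0.40 ± 0.09, adjusted p = 0.0547).

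Of the 3 called genes of endoplasmic reticulum associated degradation, Derl3 and Herpud1 kept their call whichever library was left out and Sel1l did not. Derl3 (chromosome 10, 75893398 to 75895941), a derlin that helps move misfolded proteins out of the endoplasmic reticulum, was at 32.3, 33.7 and 33.5 CPM in WT and at 65.6, 71.6 and 56.4 CPM in db/+. The log2 fold change was 0.96 ± 0.10 (adjusted p = 0.00253), and it stayed called in all 6 fits with a library left out. In db/db it was at 107, 104 and 129 CPM, above every db/+ library. Herpud1, a membrane component of the same machinery, was at 445, 503 and 523 CPM in WT and rose to 944, 810 and 809 CPM in db/+. The db/db libraries were higher still, at 961, 1203 and 1169 CPM. Its log2 fold change in db/+ was 0.80 ± 0.11 (adjusted p = 0.00497), also called in all 6 fits. Sel1l, the adaptor of the ubiquitin ligase that marks these proteins, rose by 0.43 ± 0.09 (adjusted p = 0.0439), and this call was lost whichever library was left out.

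Among chaperones, Calr (chromosome 8, 84842088 to 84846931), the lectin chaperone calreticulin, was at 1039, 1164 and 1107 CPM in WT and at 1768, 1685 and 1627 CPM in db/+. The log2 fold change was 0.62 ± 0.09 (adjusted p = 0.00892), and the call was lost without db/+ 1 or db/+ 2. In db/db Calr was at 1186, 1111 and 1331 CPM, with a log2 fold change of 0.13 against WT (adjusted p = 0.267). Creld2, a disulfide isomerase-like protein, rose by 0.75 ± 0.14 (adjusted p = 0.0385) and Manf, a secreted protein that protects stressed cells, by 0.60 ± 0.12 (adjusted p = 0.0363). Creld2 was called in 1 and Manf in 2 of the 6 fits with a library left out. The most abundant chaperone of the list, Hspa5 (BiP), was at 2207, 2948 and 2767 CPM in WT and at 3780, 3317 and 3302 CPM in db/+, with a log2 fold change of 0.39 ± 0.13 that did not pass (adjusted p = 0.156). Hsp90b1 was likewise short of the threshold (0.45 ± 0.12, adjusted p = 0.0803), as was Xbp1 (0.26 ± 0.08, adjusted p = 0.149). Of the sensors, Eif2ak3 (PERK) had a log2 fold change of 0.03 ± 0.09, Atf6 of -0.21 ± 0.12 and Ern1 (IRE1) of -0.31 ± 0.08, none of them called. The list's count of 11 became 9, 6 and 4 without WT 1, WT 2 and WT 3, 3, 3 and 4 without db/+ 1, 2 and 3, and 0 with WT 2 as the only WT library.

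**Figure D3:**
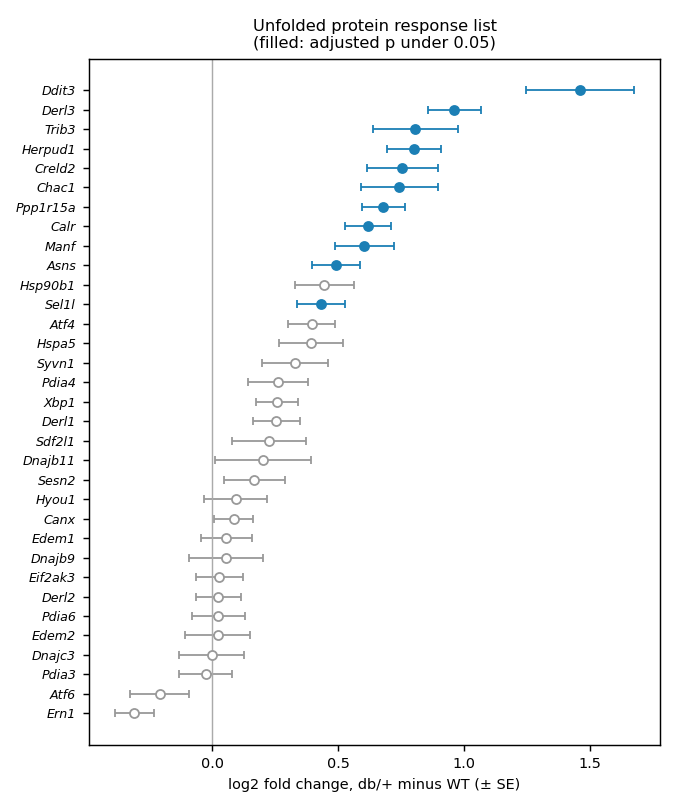
Log2 fold change of db/+ minus WT with its SE for the 33 members of the unfolded protein response list, filled where the adjusted p is under 0.05. The 11 filled points run from 0.43 to 1.46, 29 of 33 points lie above 0, and the sensors Atf6 and Ern1 are lowest.

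**Figure D4:**
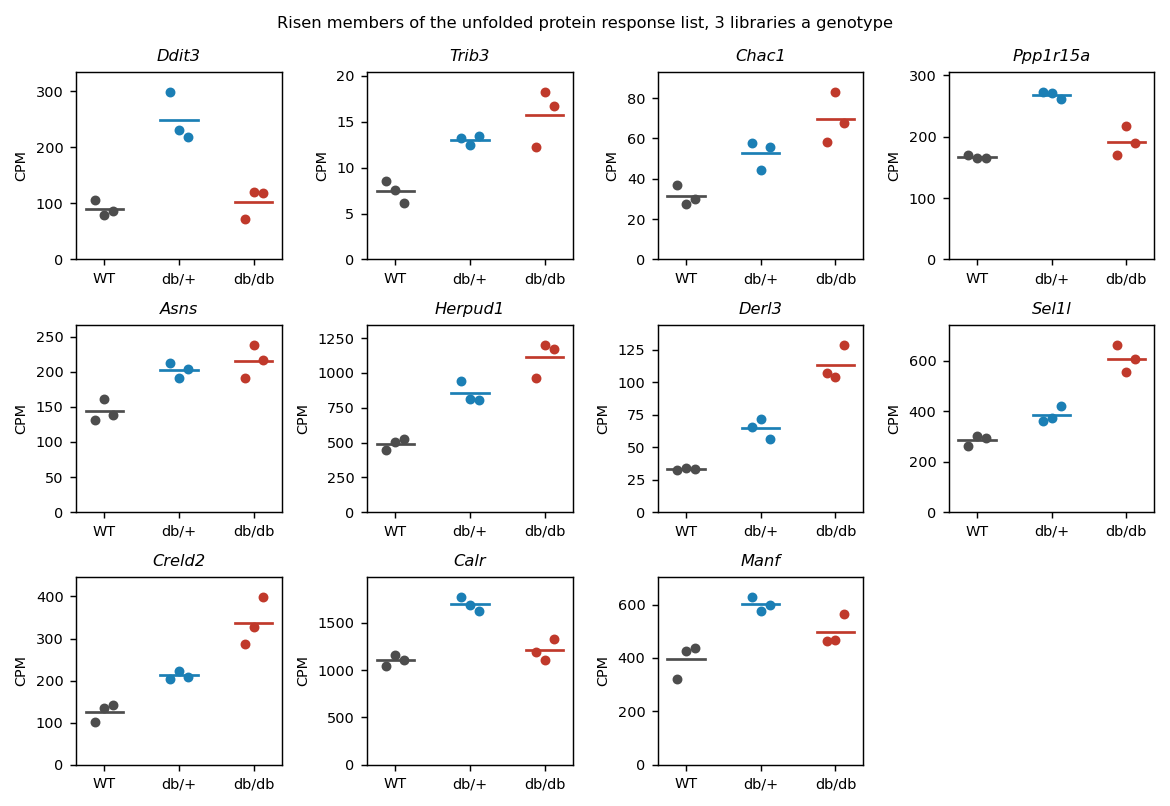
CPM of the 11 members called higher in db/+, in each library of the 3 genotypes, with a bar at the mean. Ddit3, Ppp1r15a and Calr are highest in db/+, whereas Derl3, Sel1l and Creld2 are highest in db/db.

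The members did not all order the 3 genotypes alike. The mean of Ddit3 was 90.4 ± 14.2 (SD, n = 3) in WT, 249 ± 43.5 in db/+ and 103 ± 26.6 CPM in db/db. Ppp1r15a stood at 167 ± 3.09, 268 ± 6.16 and 192 ± 23.6 CPM in the same order. Derl3 stood at 33.2 ± 0.760, 64.6 ± 7.65 and 113 ± 13.6 CPM, and Herpud1 at 490 ± 40.6, 854 ± 77.7 and 1111 ± 131 CPM. In Ddit3, Ppp1r15a and Calr no db/db library reached the lowest db/+ library, and in Derl3, Sel1l, Creld2 and Herpud1 no db/db library fell to the highest db/+ library. The db/db values share the WT libraries with the db/+ comparison and are set beside them as levels only.

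Immediate early genes, which are transcribed within minutes of a stimulus, included 6 higher and no lower members in db/+ of 28 tested. Over all tested genes 0.606% were called higher. Of the 28, 21 had a positive log2 fold change, where 53.0% of all tested genes did. The median of the 28 was 0.31, and the 6 were the AP-1 subunits Jun, Jund, Junb and Fos and the Krüppel-like factors Klf6 and Klf2. Klf6 was at 204, 160 and 190 CPM in WT and at 362, 331 and 326 CPM in db/+ (0.88 ± 0.11, adjusted p = 0.00337). It was called in all 6 fits with a library left out and, at a log2 fold change of 1.09, with WT 2 as the only WT library (adjusted p = 0.0297). Jun (chromosome 4, 95049036 to 95052222), the called gene near Lepr, was at 842, 929 and 971 CPM in WT and at 1586, 1541 and 1282 CPM in db/+ (0.69 ± 0.11, adjusted p = 0.0144). In db/db Jun was back within the range around WT, with a log2 fold change of 0.02. Fos, the most abundant of all higher genes, was at 1652, 1864 and 1947 CPM in WT and at 2995, 2622 and 2271 CPM in db/+ (0.53 ± 0.11, adjusted p = 0.0412). Jund rose by 0.92 ± 0.15 (adjusted p = 0.0249) and Junb by 0.76 ± 0.14 (adjusted p = 0.0362).

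Other genes of this list had the opposite sign or did not pass. Egr1, Egr2, Egr3, Nr4a2, Nr4a3, Arc and Fosl2 had negative log2 fold changes, from -0.17 for Egr1 to -0.82 for Egr3, and none passed. Atf3, a stress-induced partner of AP-1, was at 206, 190 and 316 CPM in WT and at 585, 382 and 321 CPM in db/+, where only a narrow gap separated the groups (0.86 ± 0.29, adjusted p = 0.226). The list's 6 calls became 4 without any 1 WT library, 1 without db/+ 1 or db/+ 2, and 5 without db/+ 3. Within db/+, library 1 was the highest for Fos, Jun, Junb, Jund and Atf3. With WT 2 as the only WT library 1 member was called. Mafk, a small MAF protein that pairs with other leucine zipper factors, rose by 0.87 ± 0.11 (adjusted p = 0.00285), again in all 6 fits.

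Nfkbia and Nfkb2, which belong to the NF-kappaB pathway, were among the 12 highest genes. No list of that pathway was examined. Nfkbia, the inhibitor that NF-kappaB itself induces, was at 88.7, 72.4 and 83.7 CPM in WT and at 146, 207 and 140 CPM in db/+ (1.01 ± 0.14, adjusted p = 0.0110). Nfkb2, which encodes the p100 and p52 subunits, was at 13.6 to 19 CPM in WT and at 26.3 to 31.8 CPM in db/+ (0.83 ± 0.13, adjusted p = 0.0110). Neither gene overlapped between the genotypes, which the rule for the 12 highest genes requires. Nfkbia was lost without WT 3 (adjusted p = 0.0601) and Nfkb2 without db/+ 1 or db/+ 2. A kappaB site, spelled GGGA, any 1 base, TTTCC, is present in 135 of 32851 promoters (0.411%). It was found for 2 of the 71 higher genes with a promoter, Nfkbia and Nfkb2, and for 1 of the 105 lower genes, Cdhr1. Searched in the same way, the AP-1 site TGACTCA was found for 2 of the 71 and 2 of the 105, and in 5.2% of promoters. The cyclic AMP response element TGACGTCA was found for 5 of the 71 and 2 of the 105, and in 1.79% of promoters. Chosen after their values were seen, Tnfaip3 (0.57 ± 0.13, adjusted p = 0.0480), Rela (0.45 ± 0.09, adjusted p = 0.0385) and Nfkbiz (0.49 ± 0.09, adjusted p = 0.0334) were higher too, each called in 1 of the 6 fits with a library left out.

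Class I genes of the major histocompatibility complex, which present peptides to cytotoxic T cells, were higher in db/+ in part: 5 of the 22 tested genes with an H2- symbol passed the test, against a background of 0.606% called higher. H2-D1 (chromosome 17, 35263094 to 35267497) was at 220, 224 and 223 CPM in WT and at 318, 338 and 304 CPM in db/+, so the 3 WT libraries were almost equal and the db/+ libraries all stood above them. Its log2 fold change was 0.52 ± 0.07 (adjusted p = 0.00541), called in all 6 fits with a library left out. H2-K1 was at 95.9, 94.3 and 90.8 CPM in WT and at 136, 155 and 126 CPM in db/+ (0.57 ± 0.09, adjusted p = 0.00892). H2-K2, close to it on the chromosome, was lower in level, at 4.97 to 6.40 CPM in WT and 11.6 to 17.5 CPM in db/+ (1.29 ± 0.19, adjusted p = 0.00892). Reads of near-identical class I copies can be split between symbols, so the 3 genes are not independent counts. The other 2 of the 5 were H2-Q4 and H2-Q5, and the median of the 22 was 0.40. The class I genes H2-Q7 (1.13, adjusted p = 0.0791), H2-Q2 (0.59, adjusted p = 0.0813), H2-T22 (0.21, adjusted p = 0.770) and H2-M3 (0.09, adjusted p = 0.742) were among those that did not pass. The class II genes H2-Aa, H2-Ab1 and H2-Eb1, which mark antigen-presenting cells, had log2 fold changes of -0.09, 0.07 and -0.02.

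The rest of the interferon list showed 1 more call. Of 26 tested members of the interferon and class I list 3 were higher, H2-D1, H2-K1 and the transcription factor Irf1 (0.61 ± 0.11, adjusted p = 0.0362), and none was lower. The median log2 fold change was 0.30 and 20 were positive. Over all tested genes 0.606% were called higher and 53.0% were positive. B2m (0.10), Tap1 (0.04) and Psmb8 (-0.06), genes of peptide loading and presentation, were close to 0 and were not called. The macrophage markers, as a list, stood at 305 to 431 CPM summed in WT and 313 to 422 CPM in db/+. The lymphocyte markers were low, at 17.3 to 63.0 CPM in WT and 12.8 to 77.3 CPM in db/+, and overlapped between the genotypes.

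Among the islet hormone genes somatostatin was the only 1 of 8 called, where 1.43% of all tested genes were called. In bulk tissue a lower share of a cell type and less RNA per cell cannot be told apart. Ins1 was at 26257, 39567 and 40256 CPM in WT and at 39476, 33791 and 36541 CPM in db/+, and the interval of its log2 fold change (from the SE with 6 degrees of freedom) ran from -0.67 to 0.77. Ins2 was at 38230, 59369 and 53321 CPM in WT and at 50781, 48618 and 51815 CPM in db/+, with an interval of -0.35 to 0.35. WT 1 was the lowest library for both genes, and the intervals leave room for moderate differences in either direction. Iapp, the gene of islet amyloid, had a log2 fold change of 0.15 ± 0.12, Gcg (glucagon) of 0.22 ± 0.19 and Ppy (pancreatic polypeptide) of -0.04 ± 0.14, and none was called.

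Sst, the somatostatin gene of delta cells (chromosome 16, 23889573 to 23891342), was at 1087, 1008 and 1043 CPM in WT and at 1657, 1464 and 1358 CPM in db/+. The lowest db/+ library was above the highest WT library, and the log2 fold change was 0.51 ± 0.11 (adjusted p = 0.0430). The call was lost whichever of the 6 libraries was left out, with adjusted p of 0.0570 to 0.201. In db/db Sst was at 902, 1159 and 1153 CPM, around the WT level. Of the 14 tested delta and PP cell markers 2 were higher by edgeR, Sst among them, and none was lower, while DESeq2 called 2 higher and 1 lower. Over all tested genes edgeR called 0.606% higher and gave 15.6% an unadjusted p under 0.05. DESeq2 called 230 of 16826 higher and 411 lower. None of the 16 tested alpha cell markers was called by edgeR (5 at an unadjusted p under 0.05 and 1 by DESeq2), with a median of 0.11.

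Genes of beta cell identity and insulin secretion were mostly not called. Over all tested genes 0.606% were called higher and 0.820% lower. Of 18 tested beta cell transcription factors Glis3, a regulator of insulin gene transcription, was the only 1 called. It was at 138, 149 and 164 CPM in WT and at 112, 114 and 109 CPM in db/+ (-0.43 ± 0.07, adjusted p = 0.0227). The list's median was -0.09 and 3 of the 18 were positive, where 53.0% of all tested genes were. Mafa (-0.04), Neurod1 (0.00), Nkx6-1 (-0.12) and Pdx1 (-0.16) did not pass. Of 27 tested genes of glucose sensing and insulin secretion Cacna1d, an L-type calcium channel subunit, was called, at 259, 239 and 333 CPM in WT and at 193, 182 and 204 CPM in db/+ (-0.52 ± 0.11, adjusted p = 0.0444). Slc2a2 (0.09), Abcc8 (-0.09) and Kcnj11 (0.28) were not called. Of the 27, 9 were positive, and the median was -0.12. At an unadjusted p under 0.05 by edgeR 5 were lower and 1 was higher, and DESeq2 called 3 lower and 1 higher. Of all 16826 tested genes 15.6% had an unadjusted p under 0.05, and DESeq2 called 411 lower and 230 higher. Both Glis3 and Cacna1d have long transcripts, and neither was called after the correction for transcript length described below (adjusted p = 0.104 and 0.203).

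The lower genes were mostly long. Within the limit of level and overlap given for the highest genes, Muc4, a large membrane mucin, had the lowest fold change, at 28.7, 30.4 and 49.3 CPM in WT and 15.9, 16.1 and 15.8 CPM in db/+ (-1.17 ± 0.19, adjusted p = 0.0335). WT 3 was the highest library, and the call was lost on leaving out any db/+ library. Hspg2, the basement membrane proteoglycan perlecan and the 1 called member of the extracellular matrix list, was at 114, 96.4 and 138 CPM in WT and at 48.5, 56.1 and 63.5 CPM in db/+ (-1.05 ± 0.17, adjusted p = 0.0363). Pclo, a giant scaffold protein of secretory sites, was at 369, 300 and 527 CPM in WT and at 194, 193 and 223 CPM in db/+ (-0.97 ± 0.18, adjusted p = 0.0444). Dchs1, Prr12, Msln, Fam107a, Tnr, Lyve1, Slc2a13, Sec22c and Stambp followed, at -0.91 to -0.74. The 5 most abundant lower genes were the predicted non-coding gene Gm26917 (-0.95 ± 0.18, adjusted p = 0.0385), the ubiquitin ligase genes Ubr4, Birc6 and Huwe1, and Map1b, a microtubule-binding protein. Ubr4 was at 856, 936 and 1176 CPM in WT and at 536, 658 and 651 CPM in db/+ (-0.69 ± 0.12, adjusted p = 0.0257).

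Transcript length separated the 2 directions. The longest annotated transcript had a median of 6858 nt in the 134 lower genes with a length, 2528 nt in 98 higher genes and 3020 nt in all 14671 tested genes with a length. Transcripts over 4000 nt made up 85.1%, 15.3% and 31.7% of these groups. Of tested genes sorted by length into 10 bins of equal size, the bin of the longest held 78 lower and no higher calls, and the median log2 fold change went from 0.10 in the bin of the shortest to -0.12 in that of the longest. The same balance differed between whole libraries. Within each library, the median deviation of log2 CPM from the mean of all libraries in the shortest 25% of genes, minus that in the longest 25%, was -0.21, -0.08 and -0.18 in WT and 0.10, -0.01 and 0.04 in db/+, without overlap. The share of Gm42418 and Lars2 counts separated the same libraries. In db/db 1, 2 and 3 that share was 17.9%, 13.3% and 0.0558%, and the length balance was 0.09, 0.10 and 0.16. The part of the share in the length trend was not tested.

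A correction for the length trend in each library, chosen after seeing the data, left 46 calls, all of them among the 240, of which 34 were higher and 12 lower. The 12 lower genes included Muc4 (-0.92, adjusted p = 0.0473), Hspg2 (-0.78, adjusted p = 0.0286), Fam107a, Stambp and Lyve1, a hyaluronan receptor of lymphatic vessels and some macrophages. Lyve1 was at 30.7, 34.7 and 41.1 CPM in WT and at 20.4, 20.5 and 20.4 CPM in db/+ (-0.79 ± 0.12, adjusted p = 0.0110 before and 0.0121 after the correction). Pclo (adjusted p = 0.0598), Ubr4 (0.145), Huwe1 (0.213), Map1b (0.292) and Birc6 (0.616) were no longer called. Of the unfolded protein response list 5 members kept their call, Derl3 (adjusted p = 0.00481), Ppp1r15a, Herpud1, Calr and Sel1l, while Ddit3 stood at 1.32 (adjusted p = 0.0613). Of the immediate early genes Klf6, Jun and Jund were still called, and of the class I genes H2-D1, H2-K1, H2-K2 and H2-Q4. Tcf24 and Mafk were also still called.

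**Figure D5:**
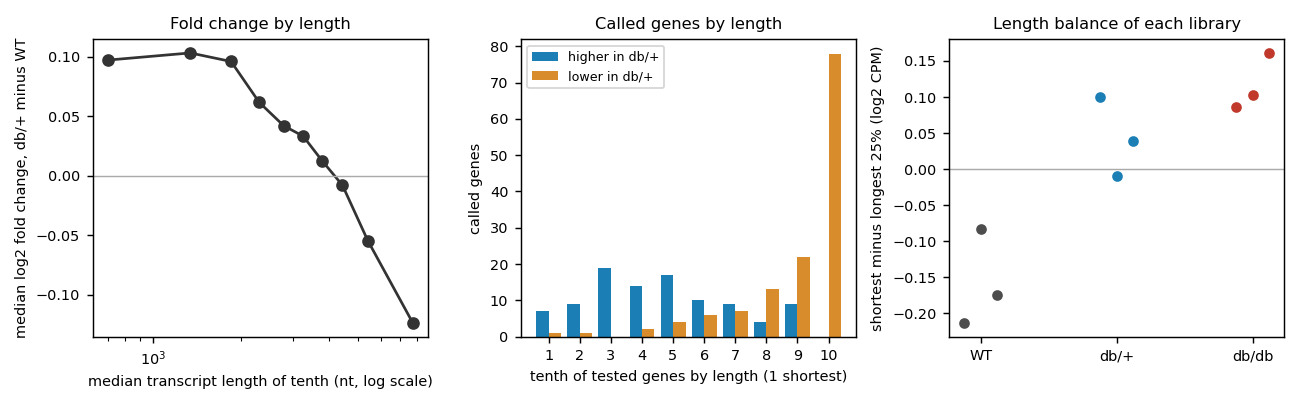
Left, median log2 fold change in 10 bins of tested genes by transcript length, on a log scale; middle, called genes in each bin; right, median deviation of log2 CPM from the mean of all libraries in the shortest minus the longest 25% of genes, for each library. The bin of the longest holds 78 lower and no higher calls, and the 3 WT libraries (-0.21 to -0.08) lie below the db/+ libraries (-0.01 to 0.10).

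Other lists held single calls, where 1.43% of all tested genes were called. Txnip, the glucose-induced inhibitor of thioredoxin and the 1 called member of 27 antioxidant genes, rose from 533, 573 and 585 CPM in WT to 884, 829 and 718 CPM in db/+ (0.52 ± 0.09, adjusted p = 0.0251). It was between 1382 and 1458 CPM in db/db. Pfkfb3, a regulator of glycolysis, was lower, at 8.73, 10.5 and 9.04 CPM in WT and 5.82, 6.33 and 4.57 CPM in db/+ (-0.76 ± 0.17, adjusted p = 0.0477), and was the only call among 23 genes of hypoxia and glycolysis. Igf1r, the receptor of insulin-like growth factor 1, was the only call of 23 genes of leptin and cytokine receptor signalling (-0.47 ± 0.11, adjusted p = 0.0493). After the length correction none of these 3 genes passed the threshold, at log2 fold changes close to those before it: 0.47 for Txnip (adjusted p = 0.0603), -0.72 for Pfkfb3 (0.0809) and -0.47 for Igf1r (0.0978).

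In the 26 lists without a call, 83 of 506 tested genes (16.4%) had an unadjusted p under 0.05, where 15.6% of all tested genes did. DESeq2 called 21 of the 506 and limma-voom none. They include the genes of cholesterol and fatty acid synthesis, the cell cycle, ribosomal proteins and the proteasome, with medians of -0.02, -0.01, -0.06, 0.08 and 0.02. All 16 heat shock genes had a positive log2 fold change (0.13 to 1.36, median 0.41), 6 of them at an unadjusted p under 0.05, and neither edgeR nor DESeq2 called any. The circadian clock genes had a median of 0.24, with 10 of 19 at an unadjusted p under 0.05 and none called by either tool.

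Markers of other cell types of the pancreas gave 1 call by edgeR, in the acinar list, where 1.43% of all tested genes were called. Of the 36 acinar genes 34 had a positive log2 fold change, with a median of 1.38, but the libraries of each genotype spread widely and only the amylase gene Amy2a5 was called (1.47 ± 0.30, adjusted p = 0.0414). Cpa1, a pancreatic carboxypeptidase, was at 1290, 721 and 626 CPM in WT and at 1593, 2129 and 3746 CPM in db/+ (adjusted p = 0.295). Duct markers summed to 1055 to 1153 CPM in WT and 1191 to 1301 CPM in db/+, without overlap and with a median log2 fold change of 0.18 over 18 genes. None of them was called by edgeR, with 7 at an unadjusted p under 0.05, and DESeq2 called 3 higher and 1 lower. Of all 16826 tested genes 15.6% had an unadjusted p under 0.05, and DESeq2 called 230 higher and 411 lower. Endothelial markers (median 0.00), stellate, fibroblast and pericyte markers (-0.15) and macrophage markers (-0.06) had no call by edgeR, with 4, 2 and 1 at an unadjusted p under 0.05. DESeq2 called 1 endothelial marker and 1 of the stellate, fibroblast and pericyte list lower, and no macrophage marker. The 5 tested erythrocyte genes summed to 119.5 CPM in WT 3 and to 17.8 to 35.8 CPM in the other 5 libraries, and none was called. Of 7 adipocyte markers only 1 was tested, and Adipoq, Lep and Retn had no count in the 6 libraries.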

How the data were processed

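The data are RNA-seq of mouse islets, with Trizol extraction, Ribo-Zero Gold ribosomal RNA removal and Illumina sequencing, per the labels' protocols. Per the submitters' processing notes, bcl2fastq 2.20.0.422 and TopHat2 2.0.14 were used with the mm10 genome. The authors deposited 1 table of whole-number read counts per gene symbol, without normalisation. How reads were counted, and whether by strand, is not given in the sources used here; overlapping, antisense and near-identical genes can therefore share counts. Groups are the genotypes of the labels, and replicate numbers follow sample order. The table holds 1 further column of per-sample values, which was not used. Counts differed within groups by 6.45 to 16.5 chi-square units per degree of freedom, far above sampling noise, so each library was counted as 1 sample.

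Genes were kept by filterByExpr on the 3 genotypes. With edgeR 4.0.16 (R 4.3.3), counts were TMM-normalised and 1 model was fitted to all 9 libraries with robust dispersion estimates, which gave a common biological coefficient of variation of 0.129 and left 6 residual degrees of freedom. Genotypes were compared by the two-sided quasi-likelihood F-test, p-values were adjusted by Benjamini-Hochberg over all 16826 tested genes, and an adjusted p under 0.05 was a call. The SE is the log2 fold change divided by the square root of F, and CPM from TMM-normalised library sizes. The floor of 3 counts covers counting error only. On simulated counts for 16279 genes with 200 changed, 37% were recovered at 1.5-fold and 91% at 3-fold, and 7.91% of 139 calls were false. Alternatives used DESeq2 1.42.0, limma 3.58.1, other normalisations, filters and covariates, and each library left out, 28 in all, of which 3 were added after seeing the data. The planned limma-voom fit, with ordinary variance moderation, called 119 genes; robust moderation was added after that count was seen.

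The libraries compared, the 39 gene lists and the rules were chosen with earlier results of these data known. Named genes are Lepr, the islet hormones, the library checks, the 12 highest and 12 lowest fold changes among called genes whose higher genotype reached 10 CPM and whose libraries did not overlap (without predicted genes, small RNAs or pseudogenes), the 5 most abundant called genes of each direction, the called genes within 10 Mb of Lepr, and the 2 risen and 2 fallen members of each list with the smallest adjusted p. The other called members of the unfolded protein response, immediate early and H2- groups are named to complete their counts. A few genes that these rules pick are not reported here. Positions and promoters are from RefSeq on GRCm38.p6, the assembly of mm10, with a position for 89.9% of tested genes. Transcript lengths, found for 87.2%, are those of the longest GENCODE transcript of a symbol in an annotation of the earlier assembly NCBIM37, used for lengths only. The length correction removed a smooth trend of each library's log2 CPM on length, fitted over genes with a mean log2 CPM above 2. Figures were drawn with matplotlib 3.10.9.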

Additional observations from a re-analysis of the deposited data

How the results depend on the processing

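Over the 28 alternatives none of the called genes changed sign, and the number of calls ranged widely around 240 (102 higher, 138 lower). A kept sign was likely in advance in most settings, because no called gene overlapped between the genotypes, and it is not a check. DESeq2 gave 641 (230 and 411), no low-count filter 768 (244 and 524), limma-voom 67 higher and 52 lower, limma-voom with robust variance moderation 246 (111 and 135), edgeR with a dispersion estimated without robust weights 46 (32 and 14), and a test against a 1.5-fold change 0 (0 and 0, with 209 at an unadjusted p under 0.05). As covariates, the acinar level gave 125 (100 and 25), the Y-linked level 407 (172 and 235), the title letter, by which WT 3 differs from the other 5 libraries, 45 (34 and 11), and the summed level of genes overlapping ribosomal RNA 0 (0 and 0). With WT 2 as the only WT library there were 21 (10 and 11), where its spread is assumed to be that of the other groups, and with the length correction 46 (34 and 12). That covariate, the length correction and robust moderation in limma-voom were chosen after seeing the data. Leaving out 1 of the 9 libraries gave 23 to 430 calls, 23 to 178 higher and 0 to 252 lower, with 430 without db/db 1, 79 without db/db 2 and 106 without db/db 3, which enter only through the shared spread. The cause of these shifts was not tested, apart from the fewer samples or covariate each setting sets. Other scalings (DESeq2 size factors, upper quartile, library totals), a filter of 1 CPM, removal of the acinar genes or of Gm42418 and Lars2, and the 6 libraries alone gave 197 to 291 calls. No paired analysis was possible because the labels carry no replicate numbers and the numbers used here follow sample order.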

Other observations

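Rbm15b (chromosome 9, 106880928 to 106887075) and Manf (106888753 to 106891938) are neighbours on the chromosome and both rose, a pattern noted after their values were seen. In db/db they were at different levels against the same WT libraries, with log2 fold changes of -0.12 for Rbm15b and 0.33 for Manf. Over chromosomes the share of tested genes called ran from 0.723% on chromosome 18 to 2.48% on chromosome 3, and it was 1.56% on chromosome 4.

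Genes of serine, one-carbon and amino acid metabolism outside the lists were among the higher genes, again chosen after their values were seen. Aldh1l2, a mitochondrial folate enzyme, was at 72.1, 66.6 and 64.9 CPM in WT and at 97.4, 109 and 104 CPM in db/+ (log2 fold change 0.61 ± 0.08, adjusted p = 0.00512 by edgeR) and was called with each of the 6 libraries left out. Psat1, an enzyme of serine synthesis, was at 11.5, 12.7 and 9.85 CPM in WT and at 15.8, 18.1 and 16.7 CPM in db/+ (0.57 ± 0.12, adjusted p = 0.0399). Mthfd2 was higher by 0.48 ± 0.11 (adjusted p = 0.0492) and the translation inhibitor gene Eif4ebp1 by 0.68 ± 0.14 (adjusted p = 0.0412). Psat1, Mthfd2 and Eif4ebp1 were each called in only 1 of the 6 fits with a library left out. Klf10, a TGF-beta induced zinc finger gene, rose by 0.77 ± 0.10 (adjusted p = 0.00285) and was called with each library left out and with WT 2 as the only WT library (adjusted p = 0.0297).

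Some genes differed widely among the WT libraries. WT 2 was highest in 2 low genes. Slc18a2, the vesicular monoamine transporter, was at 0.873 and 0.102 CPM in WT 1 and WT 3, at 15 CPM in WT 2 and at 0.591 to 3.15 CPM in db/+, and Ccl5, a T cell chemokine, at 0.476, 4.15 and 0.203 CPM in WT and at most 0.0816 CPM in db/+. WT 3 stood below the other WT libraries in C3, the complement gene, which was at 41.4, 47.9 and 6.60 CPM in WT and at 10.2, 12.1 and 7.02 CPM in db/+. None of the 3 was called by edgeR.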
